A study of Mus musculus with 8 samples.

Results

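The transcription factors of the B lineage described here, 10 of the 19937 genes with a probe set of their own, were followed in splenic B cells of mice carrying HGAL. They were Pax5, Ebf1, Foxo1, Ikzf1, Ikzf3, Spib, Irf8, Pou2f2, Pou2af1 and Bach2. The members were chosen by name, and a gene was measured by the probe set that the platform annotation pairs with its symbol alone. Each of the 10 genes had 1 such probe set, so no choice between probe sets was needed. The mice labelled Sca1-HGAL carried HGAL (also called GCET2), a germinal centre adaptor protein, under the Sca1 (Ly-6E.1) promoter. The labels call them knock-in in the genotype field and transgenic in the design text. The Control mice were wild-type littermates. All were adult, on a mixed CBAxC57BL/6J background, and neither exact age nor sex is given. Spleen cells sorted for CD22 and B220 gave total RNA for 4 Sca1-HGAL and 4 Control arrays of the Affymetrix Mouse Gene 1.0 ST type. Whether each array of a group comes from a mouse of its own is not stated, and the p-values therefore cover a spread between arrays that may be technical.

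B-cell identity is held by a small network of DNA-binding proteins. Ebf1 and Pax5 open and then lock in the B-cell programme, and Pax5 also silences genes of other lineages. Ikaros proteins, Ets and interferon regulatory factors, octamer-binding proteins and Foxo1 act on shared regulatory DNA with them, and several of these genes bind the control regions of one another. Bach2 holds back the plasma cell programme in mature B cells. In bulk samples such as these, fewer cells of a type and less RNA per cell cannot be told apart.

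The array medians lay between 145.2 and 151.4 on the deposited linear scale, and correlations between arrays of the same group averaged 0.989 to 0.994. With arrays of the other group they averaged 0.988 to 0.993, nearly the same. Sca1-HGAL replicate 3 correlated more closely with Control arrays (0.9926) than with its own group (0.9909). Marker genes of B cells were high on all arrays. Cd79a, a signalling chain of the B-cell receptor, averaged 13.29 ± 0.03 in Sca1-HGAL and 13.40 ± 0.07 in Control arrays (log2 intensity, SD, n = 4 each). Of the genes of the sort, Cd22 averaged 12.70 ± 0.13 in Sca1-HGAL and 12.66 ± 0.04 in Control arrays. Ptprc, the gene of B220, averaged 12.77 ± 0.07 in Sca1-HGAL and 12.77 ± 0.09 in Control arrays. Of the markers of other cells, 8 of 8 measured T-cell, 9 of 9 myeloid and 4 of 4 plasmacytoid dendritic cell genes had a mean above log2 6. So did 5 of 5 erythroid, 5 of 5 plasma cell, 6 of 7 neutrophil and 4 of 5 natural killer cell genes. The erythroid gene Alas2 averaged 11.51 ± 0.29 in Sca1-HGAL and 10.63 ± 1.07 in Control arrays (limma adjusted p = 0.559). Of the 5 erythroid differences, 3 were positive and 2 negative (56.1% and 43.9% of all probe sets). The values carry no detection calls, so no marker can be called absent. Control replicates 2 and 4 had Xist at 12.17 and 12.18, against 5.28 to 5.65 on the other 6 arrays, so sex-linked expression was uneven between the groups. Eif2s3y, a gene of the Y chromosome, was at 4.22 and 3.96 on these 2 arrays, against 10.21 to 10.61 on the other 6. The 4 Control arrays therefore did not all come from 1 mouse. The probe set of the mouse gene Gcsam was not taken as a check of the introduced HGAL.

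DNA before annotated starts of the genes was searched for motifs that these factors bind. RefSeq promoter windows of GRCm38.p6, from 250 bases before to 50 after a start, were found for 9 of the 10 genes, with 12 windows in all. Ikzf3 had no entry. Both strands were searched for 6 motifs: the octamer ATGCAAAT (Pou2f2 with Pou2af1), TCCC and GGGA with 2 bases between (Ebf1), GTAAACA (Foxo1), GGAA and GAAA with 2 bases between (an Ets factor such as Spib beside an Irf factor), TGAGTCA (Bach2) and TGGGAA (Ikaros proteins). The 3 stretches shown, each the 150 bases before a start on the gene's strand, are those whose window holds the Ebf1 or the Ets-Irf motif, in capitals. The Foxo1 start is the outermost one of its gene, while the starts used for Bach2 and Pou2f2 lie inside the gene as RefSeq annotates it, downstream of its outermost start.
Foxo1 promoter, chr3:52268187-52268336, plus strand: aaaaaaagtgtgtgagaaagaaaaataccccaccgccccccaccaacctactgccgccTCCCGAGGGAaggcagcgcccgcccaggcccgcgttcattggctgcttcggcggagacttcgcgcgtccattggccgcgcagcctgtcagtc
Bach2 promoter, chr4:32417285-32417434, plus strand: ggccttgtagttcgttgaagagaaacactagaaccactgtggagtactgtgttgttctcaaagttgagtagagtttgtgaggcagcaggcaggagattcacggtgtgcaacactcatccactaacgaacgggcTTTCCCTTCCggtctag
Pou2f2 promoter, chr7:25132461-25132610, minus strand: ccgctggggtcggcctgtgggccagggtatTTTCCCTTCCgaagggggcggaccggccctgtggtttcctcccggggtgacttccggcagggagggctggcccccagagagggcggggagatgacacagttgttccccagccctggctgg
The Ebf1 motif was in 1 of the 12 windows, that of Foxo1, and in 0.904% of all 32851 promoter windows. The Ets-Irf motif was in 2 of the 12 windows and in 2.72% of all windows. In both it reads TTTCCCTTCC, the motif on the other strand. The Ikaros motif, present in 25.6% of all windows, was in 3 windows, of Irf8 and Ebf1. The octamer (1.74% of all windows), the Foxo1 motif (3.65%) and the Bach2 motif (5.2%) were in none of the 12. No window held matches of more than 1 motif, so none overlapped. These are matches of letters, and no binding was measured.

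All 10 factors were among the brighter probe sets of the array. Their mean levels over the 8 arrays stood at the 90.9th percentile (Pou2f2) to the 99.5th percentile (Pax5) of the 21640 probe sets tested. In intensity the order was Pax5, Spib, Ikzf3, Ebf1, Irf8, Ikzf1, Pou2af1, Bach2, Foxo1 and Pou2f2. Probe sets differ in affinity and are not scaled by length, so this is an order of intensities and not of RNA amounts. By group mean the order was the same in Sca1-HGAL and in Control arrays. Pax5 was first on 7 of the 8 arrays and Spib on the other one, Sca1-HGAL replicate 4. Pou2f2 was last on all 8. Several neighbours could not be ordered within their spread. The ranges over 4 arrays overlapped in both groups between Pax5 and Spib, between Ikzf3 and Ebf1, and between Bach2 and Foxo1. They were apart in both groups between Irf8 and Ikzf1 and between Foxo1 and Pou2f2. Ikzf1 and Pou2af1 were 0.20 log2 units apart in Control arrays with separate ranges. In Sca1-HGAL arrays the gap was 0.02 and the ranges overlapped, with Pou2af1 above Ikzf1 in replicates 1 and 2.

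**Figure D1:**
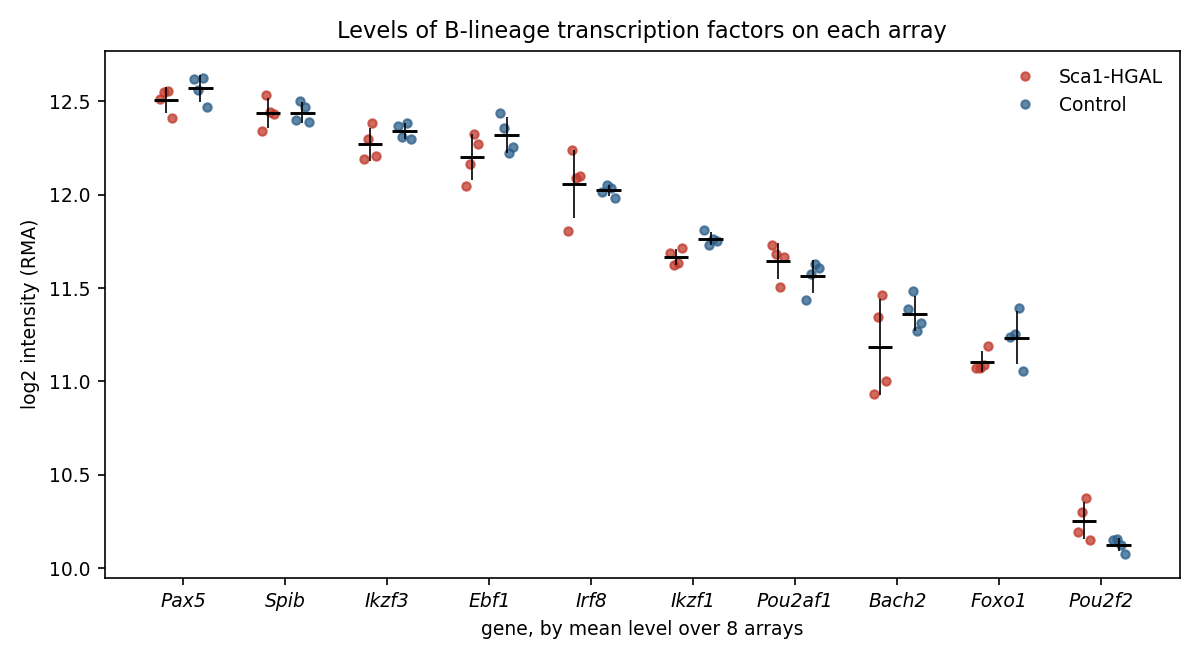
Log2 intensity (RMA) of the 10 factors on each array, ordered by mean level over 8 arrays, with Sca1-HGAL arrays in red left of Control arrays in blue. Horizontal lines are group means and vertical lines 1 SD (n = 4 each). Bach2 has the widest spread among Sca1-HGAL arrays, and Ikzf1 is the factor whose groups do not overlap.

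None of the 10 factors differed between the groups past the threshold. In limma's test with Benjamini-Hochberg adjustment over all probe sets, 0 of 10 had an adjusted p under 0.05, where 0.00462% of the 21640 probe sets tested did (1 probe set, that of St3gal5, which is not among the 10 and is named here after its value was seen). At an unadjusted p under 0.05 it was also 0 of 10, where 9.59% of all probe sets passed. Of the probe sets at least as bright as Pou2f2, 12.3% passed. The differences, Sca1-HGAL minus Control on the log2 scale, ran from -0.18 for Bach2 to 0.13 for Pou2f2. The difference was negative for 7 of 10 genes, against 43.9% of all probe sets, and positive for 3, against 56.1%. The median over the 10 was -0.07, against 0.01 over all probe sets and -0.03 over the 1960 probe sets at least as bright as Pou2f2.

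The precision of these differences limits how large a change could have gone unseen. The standard errors ran from 0.05 to 0.12 and the 95% confidence intervals extended 0.12 to 0.26 log2 units to either side of the estimate. For 10 of 10 genes the interval lay wholly within -0.5 to 0.5, as it did for 91.9% of all probe sets and 91.6% of those at least as bright as Pou2f2. For 6 of 10 it lay within -0.25 to 0.25, against 47.6% of all probe sets and 51.4% of the equally bright ones. The 6 were Pax5, Spib, Ikzf3, Irf8, Ikzf1 and Pou2af1. These intervals are not widened for the number of genes. Each of the 10 intervals also held 0. Leaving out the 2 Control arrays with high Xist reduced the count within -0.25 to 0.25 to 1, and leaving out Control replicate 2 alone reduced it to 3.

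**Figure D2:**
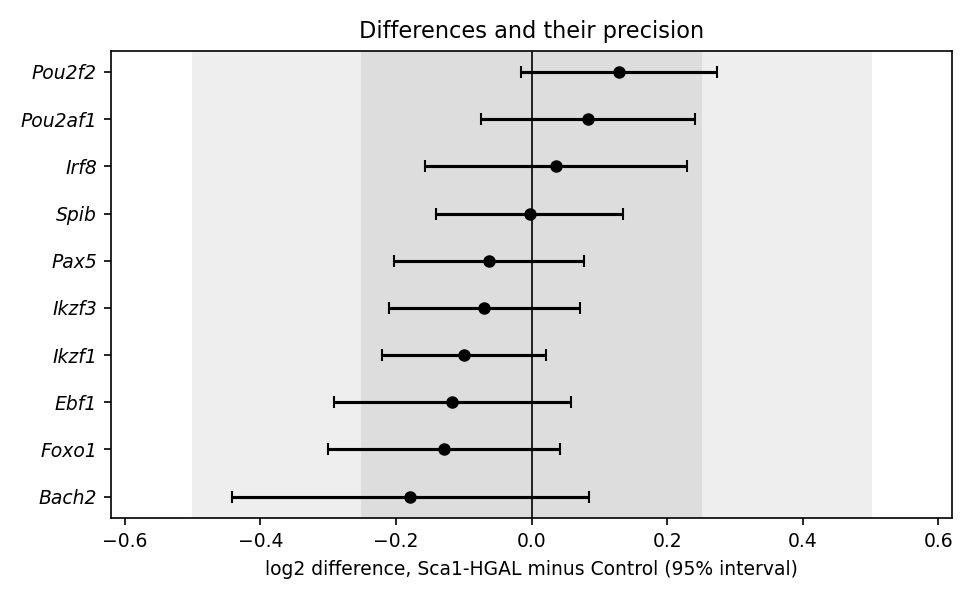
Log2 difference, Sca1-HGAL minus Control, of each factor with its 95% confidence interval from limma (4 arrays per group). The dark band marks -0.25 to 0.25 and the light band -0.5 to 0.5. All 10 intervals hold 0 and stay within the light band, with Bach2 reaching lowest, to -0.44.

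The factors that commit cells to the B lineage came first. Pax5, the paired-box factor that keeps B cells committed, was at 12.51, 12.55, 12.56 and 12.41 in Sca1-HGAL replicates 1 to 4, against 12.62, 12.56, 12.63 and 12.47 in Control replicates 1 to 4. Both groups had their lowest value in replicate 4, and the groups overlapped. The difference was -0.06 (SE 0.06, 95% interval -0.20 to 0.08, limma adjusted p = 0.805), or -4.26% on the linear scale with an interval from -13.1% to 5.51%. Without the Xist-high arrays it was -0.12, with an interval from -0.30 to 0.07. Ebf1 encodes the early B-cell factor that acts upstream of and together with Pax5. It was at 12.05, 12.17, 12.32 and 12.27 in Sca1-HGAL arrays, against 12.44, 12.36, 12.23 and 12.26 in Control arrays. Sca1-HGAL replicate 1 was lowest and Control replicate 1 highest, with overlap between the groups. The Ebf1 difference was -0.12 (SE 0.08, interval -0.29 to 0.06, limma adjusted p = 0.684). It was -0.07 without Sca1-HGAL replicate 1.

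Foxo1, a forkhead factor that is held out of the nucleus by PI3 kinase signalling and drives Rag and homing receptor genes, was at 11.07, 11.07, 11.09 and 11.19 in Sca1-HGAL arrays, against 11.24, 11.25, 11.39 and 11.05 in Control arrays. In Control, 3 arrays lay above every Sca1-HGAL array, while Control replicate 4 lay below them all. The difference was -0.13 (SE 0.08, interval -0.30 to 0.04, limma adjusted p = 0.638). Without Control replicate 3 the Foxo1 difference was -0.08. Without Control replicate 4 the difference was -0.19 with an interval from -0.35 to -0.03 (limma adjusted p = 0.472). Without both Xist-high Control arrays it was -0.21 with an interval from -0.40 to -0.02 (limma adjusted p = 0.599). With Xist as a covariate it was -0.21 with an interval from -0.41 to -0.01 (limma adjusted p = 0.543). In these settings the unadjusted p of Foxo1 was under 0.05. The RNA level does not measure where the Foxo1 protein is.

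The Ikaros family members were measured next. Ikzf1 encodes Ikaros, a zinc-finger factor needed for lymphoid development and a brake on pre-B cell growth. It was at 11.69, 11.62, 11.64 and 11.72 in Sca1-HGAL arrays, against 11.81, 11.73, 11.77 and 11.76 in Control arrays. All 4 Sca1-HGAL arrays lay below all 4 Control arrays, though the nearest arrays of the groups, at 11.72 and 11.73, were closer than the SD of either group. Of the 10 factors, 1 was apart in this way, where 5.45% of all probe sets were, 2.3% on the lower and 3.15% on the higher side. The Ikzf1 difference was -0.10 (SE 0.05, interval -0.22 to 0.02, limma adjusted p = 0.604), a linear change of -6.67%. With arrays centred on their medians it was -0.14, with an interval from -0.26 to -0.01 and a limma adjusted p of 0.442. An ordinary linear model gave an interval from -0.17 to -0.03, with an adjusted p of 0.480 from that model. In both settings the unadjusted p of Ikzf1 was under 0.05. After a second quantile normalisation the Ikzf1 difference was -0.06, with an interval from -0.18 to 0.05. Ikzf3 encodes Aiolos, the relative of Ikaros that is most abundant in mature B cells. It was at 12.19, 12.30, 12.38 and 12.21 in Sca1-HGAL arrays, against 12.37, 12.31, 12.39 and 12.30 in Control arrays. Sca1-HGAL replicates 1 and 4 lay below every Control array and the other 2 within the Control spread. The difference was -0.07 (SE 0.06, interval -0.21 to 0.07, limma adjusted p = 0.783), and -0.11 without the Xist-high arrays.

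Spib and Irf8 encode an Ets factor and an interferon regulatory factor that can bind composite sites together. Spib was at 12.34, 12.54, 12.44 and 12.43 in Sca1-HGAL arrays, against 12.40, 12.50, 12.47 and 12.39 in Control arrays. The Sca1-HGAL arrays held both the highest and the lowest value. Its difference was the one nearest to 0 of the 10, at -0.0029 (SE 0.06, interval -0.14 to 0.14, limma adjusted p = 0.997). The sign of so small a value turned with several settings, among them a second quantile normalisation (0.02). On the linear scale the interval ran from -9.32% to 9.84%. Irf8 was at 11.81, 12.24, 12.09 and 12.10 in Sca1-HGAL arrays, against 12.02, 12.06, 12.04 and 11.99 in Control arrays. The Sca1-HGAL arrays lay on both sides of the Control group, with an SD of 0.18 in Sca1-HGAL and 0.03 in Control arrays. The Irf8 difference was 0.04 (SE 0.09, interval -0.16 to 0.23, limma adjusted p = 0.938). Without Sca1-HGAL replicate 1 it was 0.12 (adjusted p = 0.486), without Sca1-HGAL replicate 2 it was -0.02, and with arrays centred on their medians it was -0.0027. Plasmacytoid dendritic cells also express both genes. The mean log2 level of their 4 measured markers was 7.30 to 7.54 in Sca1-HGAL and 7.59 to 8.24 in Control arrays, without overlap. Summed on the linear scale, the markers were at log2 9.49 to 9.71 in Sca1-HGAL and 9.71 to 10.29 in Control arrays. Of these markers, 4 of 4 were lower on average (43.9% of all probe sets). At an unadjusted p under 0.05, 2 were lower (4.06% of all probe sets), and 0 passed the adjusted threshold. The part of such cells in the Spib and Irf8 values was not tested.

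The octamer factors both had positive differences, as did Irf8. Pou2f2 encodes Oct-2, which binds the octamer of immunoglobulin promoters. It was at 10.20, 10.30, 10.38 and 10.15 in Sca1-HGAL arrays, against 10.15, 10.15, 10.12 and 10.08 in Control arrays. In Sca1-HGAL, 3 arrays lay above every Control array, and replicate 4 was level with the upper Control values. The difference was 0.13 (SE 0.06, interval -0.02 to 0.27, limma adjusted p = 0.567), a linear change of 9.36%, and Pou2f2 had the smallest p of the 10 (0.0747 before adjustment, from limma). Its unadjusted p was under 0.05 after a second quantile normalisation (0.15, limma adjusted p = 0.536) and without Sca1-HGAL replicate 4 (0.16, limma adjusted p = 0.621). Pou2af1 encodes the coactivator OBF-1, which octamer proteins recruit. It was at 11.73, 11.68, 11.51 and 11.66 in Sca1-HGAL arrays, against 11.44, 11.57, 11.63 and 11.61 in Control arrays. The Sca1-HGAL arrays lay above every Control array but for replicate 3, which lay within the Control range. The Pou2af1 difference was 0.08 (SE 0.07, interval -0.08 to 0.24, limma adjusted p = 0.766). Sca1-HGAL replicate 3 was thus the highest of its group for Pou2f2 and the lowest for Pou2af1.

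Bach2, a leucine-zipper repressor that delays plasma cell differentiation, varied most. It was at 10.93, 11.34, 11.46 and 11.00 in Sca1-HGAL arrays, against 11.39, 11.48, 11.27 and 11.31 in Control arrays. Sca1-HGAL replicates 1 and 4 lay below every Control array, while replicates 2 and 3 lay within the Control range. The SD was 0.26 in Sca1-HGAL and 0.09 in Control arrays (n = 4 each). The difference was -0.18 (SE 0.12, interval -0.44 to 0.08, limma adjusted p = 0.679), so that the linear interval reached from -26.4% to 5.99%. It was -0.09 without Sca1-HGAL replicate 1 and -0.27 without replicate 3, where the interval was -0.51 to -0.03 and limma's adjusted p = 0.383. Of the genes that Bach2 is known to repress, Prdm1 encodes Blimp-1, the plasma cell regulator. Prdm1 was at 8.84, 7.33, 7.03 and 7.46 in Sca1-HGAL arrays, against 7.54, 7.72, 7.94 and 7.65 in Control arrays. Replicate 1, where Bach2 was lowest, had the highest Prdm1 level, and replicate 3, where Bach2 was highest among Sca1-HGAL arrays, had the lowest. The Prdm1 difference was -0.05 (SE 0.32, limma adjusted p = 0.984). Without Sca1-HGAL replicate 1 it was -0.44 (limma adjusted p = 0.255). Hmox1, a haem oxygenase gene, had a difference of 0.18 (SE 0.24, limma adjusted p = 0.858), and 0.49 without the Xist-high arrays. The 5 plasma cell markers, which include Prdm1, averaged 9.28 in Sca1-HGAL replicate 1 and 8.47 to 8.80 in the other Sca1-HGAL arrays, against 8.67 to 9.14 in Control arrays. Their part in the Bach2 spread was not tested.

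**Figure D3:**
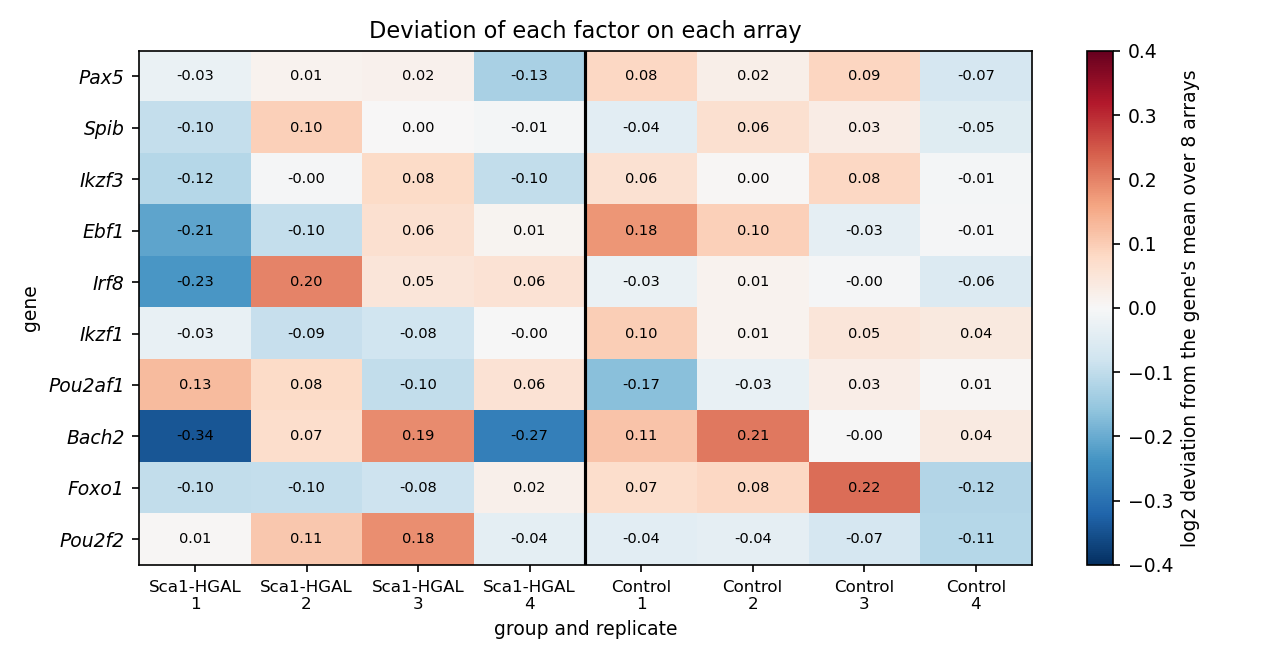
Deviation of each factor on each array from that gene's mean over 8 arrays (log2 units, blue lower, red higher), with Sca1-HGAL arrays left of the black line and Control arrays right of it. The largest deviation is -0.34, for Bach2 in Sca1-HGAL replicate 1, and that array is lowest for 5 of the 10 genes.

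Seen by array, the factors did not all move the same way, though Sca1-HGAL replicate 1 was below the gene mean for most of them. Sca1-HGAL replicate 1 was the lowest of the 8 arrays for 5 genes (Bach2, Irf8, Ebf1, Ikzf3 and Spib) and the highest for 1 (Pou2af1). Control replicate 3 was the highest for 3 genes. The mean over the 10 genes was 11.65, 11.78, 11.79 and 11.71 in Sca1-HGAL arrays, against 11.79, 11.80, 11.79 and 11.72 in Control arrays. Only Sca1-HGAL replicates 1 and 4 lay below every Control array on this mean. The SD was larger among Sca1-HGAL than among Control arrays for 8 of 10 genes, as for 57.4% of all probe sets. Markers of other cells also varied among the Sca1-HGAL arrays. The 8 T-cell markers averaged 8.05 in Sca1-HGAL replicate 1 and 6.88 in replicate 3, and 7.28 to 7.68 in Control arrays. The 7 neutrophil markers averaged 7.65 and 6.60 on the same Sca1-HGAL arrays, against 6.44 to 7.07 in Control arrays. Of the 7, 4 were higher in Sca1-HGAL at an unadjusted p under 0.05 (5.53% of all probe sets), and 0 passed after adjustment. Summed on the linear scale, the 5 measured B-cell markers were at log2 15.48 to 15.51 in Sca1-HGAL and 15.53 to 15.56 in Control arrays. On this sum the groups did not overlap. The part of other cells in the factor levels was not tested.

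Relatives of the factors by gene family were then set beside them. Of 24 measured, 0 passed the adjusted threshold, 2 were lower and 0 higher at an unadjusted p under 0.05 (4.06% and 5.53% of all probe sets), and the median difference was -0.0070. Spi1, which encodes PU.1, the Ets factor that shares targets with Spib, was at 10.60, 10.44, 10.67 and 10.57 in Sca1-HGAL arrays, against 10.76, 10.74, 10.87 and 10.72 in Control arrays. The groups did not overlap. The Spi1 difference was -0.20 (SE 0.07, limma adjusted p = 0.369). Irf7, an interferon-induced relative of Irf8, had -0.41 (SE 0.17, adjusted p = 0.498 from limma), and -0.12 without the Xist-high Control arrays. Bach1, the relative of Bach2, had -0.12 with no overlap, and Ikzf4 had 0.14, neither past the threshold.

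Partner factors of B-cell identity were next. This list also holds Spi1, which therefore counts among the lower genes of both lists. Of 24 measured, 0 passed the adjusted threshold, 6 were lower and 0 higher at an unadjusted p under 0.05 (4.06% and 5.53% of all probe sets), and the median was -0.07. The 4 with the smallest p were Myb, Lef1, Spi1 and Sox4. Myb, a factor of progenitor cells, averaged 7.29 ± 0.39 in Sca1-HGAL and 8.28 ± 0.61 in Control arrays (SD, n = 4 each), a difference of -0.99 (SE 0.29, limma adjusted p = 0.305). Lef1, a partner of beta-catenin that precursor B cells express, had -0.56 (SE 0.17, adjusted p = 0.325 from limma). Sox4, also a gene of early B cells, had -0.31 (SE 0.11, adjusted p = 0.416 from limma), and -0.19 both without the Xist-high arrays and with Xist as a covariate, where limma's unadjusted p was 0.168 and 0.158.

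Factors of germinal centre, plasma and B-1 cells included larger differences, of which none passed. Of 11 measured, 5 were higher and 0 lower at an unadjusted p under 0.05 (5.53% and 4.06% of all probe sets), 0 passed after adjustment, and the median was -0.0016. The other 6 had negative differences, down to -0.30, with Prdm1 at -0.05 among them. Tbx21, which encodes T-bet, was at 8.76, 9.28, 8.35 and 8.61 in Sca1-HGAL arrays, against 7.81, 7.74, 7.69 and 7.82 in Control arrays. All Sca1-HGAL arrays lay above all Control arrays, with a difference of 0.99 (SE 0.16, limma adjusted p = 0.111). Zbtb20, a zinc-finger factor of B-1 and plasma cells, was at 11.51, 11.56, 10.59 and 11.02 in Sca1-HGAL arrays, against 10.28, 10.24, 10.20 and 10.17 in Control arrays. It too did not overlap, with a difference of 0.95 (SE 0.19, limma adjusted p = 0.138). Without Sca1-HGAL replicate 3 both passed, with limma adjusted p = 0.0265 for Tbx21 and 0.0122 for Zbtb20. In the other 18 alternative settings neither Tbx21 nor Zbtb20 passed. Zbtb32 had 1.15 (SE 0.39, limma adjusted p = 0.386), with 10.07 in Sca1-HGAL replicate 1 and 7.88 in replicate 3, and 7.52 to 7.77 in Control arrays. Batf, an AP-1 family factor, had 0.26. Natural killer cells express Tbx21 too. Their 5 markers, summed on the linear scale, were at log2 8.80 to 9.36 in Sca1-HGAL and 9.10 to 9.44 in Control arrays. Of these markers, 4 of 5 were lower on average (43.9% of all probe sets). At an unadjusted p under 0.05, 1 was lower (4.06% of all probe sets). It was Gzma, a granzyme gene, with a difference of -0.77 (limma adjusted p = 0.272). Their part in the Tbx21 values was not tested.

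**Figure D4:**
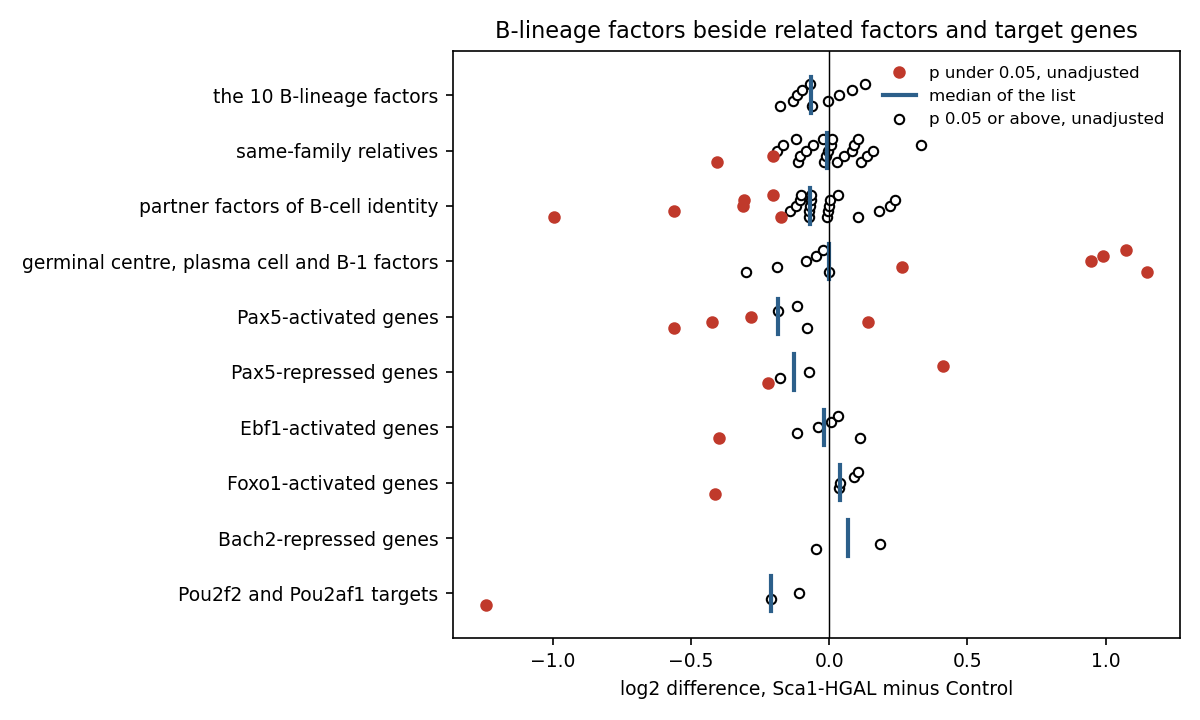
Log2 difference, Sca1-HGAL minus Control, of each gene of the 10 factors and of related lists (rows). Filled red points had an unadjusted limma p under 0.05, open points did not, and the blue bar is the list's median. The 10 factors lie between -0.18 and 0.13. Of the factors of germinal centre, plasma and B-1 cells, 5 lie to the right with a filled point. The other 6 have negative differences and open points.

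Target genes of the factors were looked at last, from textbook lists. Among genes that Pax5 activates, 3 of 7 measured were lower and 1 higher at an unadjusted p under 0.05 (4.06% and 5.53% of all probe sets), with 0 past the adjusted threshold and a median of -0.19. Fcer2a, the low-affinity IgE receptor CD23, was at 12.12, 12.09, 12.54 and 12.25 in Sca1-HGAL arrays, against 12.68, 12.59, 12.83 and 12.59 in Control arrays. The groups did not overlap, and the difference was -0.42 (SE 0.10, limma adjusted p = 0.225). Lef1 is also on this list. Cr2, the complement receptor CD21, had -0.28 and Ciita, the activator of MHC class II genes, 0.14, neither past the threshold. Among 4 genes that Pax5 represses, Notch1 had -0.22 (SE 0.07, limma adjusted p = 0.330) without overlap, Flt3 0.41 (SE 0.15, limma adjusted p = 0.419), Csf1r -0.18 and Cd28 -0.07. Without the Xist-high arrays Csf1r had -0.0010. In that setting the unadjusted p of Cr2, Ciita, Notch1, Flt3, Lef1, Zbtb32 and Irf7 was above 0.05, and apart from Irf7 their differences kept within 1.5 times.

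Among 6 measured genes that Ebf1 activates, 1 was lower at an unadjusted p under 0.05 (4.06% of all probe sets), none passed after adjustment and the median was -0.02. That gene was Vpreb3, of the surrogate light chain family, at 10.19, 10.27, 10.16 and 10.37 in Sca1-HGAL arrays, against 10.55, 10.64, 10.97 and 10.41 in Control arrays. It did not overlap and had a difference of -0.40 (SE 0.11, limma adjusted p = 0.295). Cd79a had -0.11, also without overlap, Cd79b -0.04 and Vpreb1 0.11. Vpreb1 was at low levels of 6.48 in Sca1-HGAL and 6.37 in Control arrays. Among 5 genes that Foxo1 activates, 1 was lower at an unadjusted p under 0.05 (4.06% of all probe sets), 0 passed after adjustment and the median was 0.04. This was Ccr7, a homing receptor, at 11.31, 11.47, 11.96 and 11.64 in Sca1-HGAL arrays, against 12.10, 11.96, 12.16 and 11.81 in Control arrays. Its difference was -0.41 (SE 0.13, limma adjusted p = 0.358), with Sca1-HGAL replicate 3 inside the Control range. Klf2, another Foxo1 target, had 0.10, and the recombinase genes Rag2 and Rag1 had 0.09 and 0.04 at low levels of 4.62 and 6.04 in Sca1-HGAL and 4.53 and 6.00 in Control arrays.

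Cd36, a scavenger receptor that depends on Oct-2 in B cells, had the largest difference of the target lists. It was at 9.80, 8.10, 8.56 and 8.61 in Sca1-HGAL arrays, against 9.63, 9.95, 10.23 and 10.21 in Control arrays. The Sca1-HGAL arrays lay below every Control array but for replicate 1, which lay among them. The Cd36 difference was -1.24 (SE 0.31, limma adjusted p = 0.230), beside a Pou2f2 difference of 0.13. Without Sca1-HGAL replicate 1 it was -1.58 and passed, with a limma adjusted p = 0.0486. In the other 18 alternative settings Cd36 did not pass. Ms4a1, the B-cell surface protein CD20, had -0.11, and Crisp3 -0.21, neither past the threshold. Crisp3 was at low levels of 5.47 in Sca1-HGAL and 5.68 in Control arrays. Myeloid cells also carry Cd36. Their 9 markers, summed on the linear scale, were at log2 11.01 to 11.63 in Sca1-HGAL and 11.02 to 11.44 in Control arrays. Of these markers, 2 of 9 were higher and 0 lower at an unadjusted p under 0.05 (5.53% and 4.06% of all probe sets), and none passed after adjustment. The 2 were Adgre1, a macrophage surface receptor gene, with a difference of 1.01 (limma adjusted p = 0.122), and Itgam, which encodes CD11b, with 0.99 (limma adjusted p = 0.261). Both were without overlap. By sign, 4 of the 9 differences were positive and 5, like that of Cd36, negative, with a median of -0.03. The part of such cells in the Cd36 value was not tested.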

How the data were processed

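Total RNA of sorted spleen B cells was measured on 8 arrays, with groups and replicate numbers read off the sample titles. The authors deposited linear intensities, and the submitters' processing notes name RMA as the method. Its version, the annotation and the build were not given in the sources used here. Since RMA brings the probe values of all arrays to one distribution, it would hide a shift common to most genes. The deposited probe set values still differed somewhat, with array medians from 145.2 to 151.4. Centring arrays on their medians moved the difference of Spib from -0.0029 to -0.041 and that of Ikzf1 from -0.10 to -0.14. Here log2 was taken with no pseudocount and no filter.

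Of 34760 rows, 21640 were paired with 1 gene symbol, stood for 19937 genes and went into the test (limma 3.58.1, R 4.3.3, with lmFit and eBayes on 2 groups, two-sided, Benjamini-Hochberg adjusted p under 0.05). Confidence intervals are 95% from the moderated standard error. The procedure was tested on simulated data. The members, lists, tests and the naming rule (all members, up to 4 genes with the smallest p per other list) were chosen with earlier results of these data known. Alternatives changed the normalisation, filter, weights, variance prior, rows and sex-linked expression, used the replicate number as a block, or left out each array. Same-numbered arrays deviated with correlations of -0.16 to 0.05, so the numbers were not treated as pairs. The precision is limited by 4 arrays per group. List genes without a probe set of their own were not analysed here.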

Additional observations from a re-analysis of the deposited data

Results flagged for a closer look

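A single array stood apart from the 3 others of its group in 2 of 82 groups of 4 values checked over 41 genes, where chance flags about 1 in 20. Foxo1 was at 11.19 in Sca1-HGAL replicate 4, above the 11.07 to 11.09 of the other Sca1-HGAL arrays. Csf1r, the receptor gene of the macrophage growth factor, was at 7.85 in the same array, above 7.34 to 7.40 in the other Sca1-HGAL arrays.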

How the results depend on the processing

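Over 19 alternatives, 0 of the 10 factors passed the adjusted threshold in any, and the smallest adjusted p was 0.383. Of 190 factor values, 181 kept their sign. The other 9 were of Spib and Irf8. Part of the 181 were fixed in advance, because some alternatives cannot change the difference of a factor. These were the filter, the replicate block, the variance prior, the ordinary linear model, the use of all rows and the averaging of probe sets. Spib had 0.020 after a second quantile normalisation, 0.0033 with array weights, 0.0033 with Xist as a covariate and 0.0040 without the Xist-high arrays, and -0.035 to 0.029 with an array left out. Irf8 had -0.0027 after median centring and -0.024 to 0.12 with an array left out. The median over the 10 stayed between -0.11 and -0.04. All 10 intervals, or 9, lay within -0.5 to 0.5. At an unadjusted p under 0.05, each alternative gave 0 or 1 factor. The count of all probe sets called was 3 after median centring, 12 with array weights, 6 with the replicate block, 0 with an ordinary linear model, 2 when probe sets of 1 gene were averaged, 2 without the Xist-high arrays, and 1 to 40 with an array left out, 40 without Sca1-HGAL replicate 3. With the replicate block no factor was called, and the factor differences are the same by design. Of the 4 Sca1-HGAL arrays, 1 correlated best with the Control array of its own number.

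Other genes turned sign near 0. Cd79b had 0.016 after a second quantile normalisation. Rag1 had -0.00055 after median centring and -0.0019 with array weights. Crisp3 had 0.014 with Xist as a covariate and 0.010 without the Xist-high arrays. With an array left out, Rag1 ranged from -0.018 to 0.095, Crisp3 from -0.41 to 0.13, Cd28 from -0.25 to 0.16, Vpreb1 from -0.033 to 0.27, Hmox1 from -0.012 to 0.35 and Prdm1 from -0.44 to 0.17. The cause was not tested.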
